A study of Mus musculus with 38 samples.

Results

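Regulatory T cells (Tregs) and the chemokine system that recruits them were followed through 8 genes in mouse omental tumors. The genes were Foxp3, Il2ra, Ikzf2 and Tnfrsf18, which mark Tregs, the chemokine receptors Ccr4 and Ccr8, and the chemokines Ccl17 and Ccl22, which bind CCR4. They were chosen by symbol, each matched 1 Ensembl gene, and they are 8 of the 55487 genes in the deposited table of bulk RNA sequencing counts. The tumors were grown from 60577 or HGS2, mouse lines of high-grade serous ovarian cancer (HGSOC), by intraperitoneal injection into syngeneic female mice aged 8 to 9 weeks, FVB for 60577 and C57BL/6J for HGS2. Treated mice received chemo, 20 mg/kg carboplatin with 10 mg/kg paclitaxel, in 3 weekly intraperitoneal doses from day 21 (60577) or day 49 (HGS2) after injection, and control mice received vehicle. Omental tumors were taken 1 day (TP1), 7 days (TP2) or 21 days (TP3) after the last dose, and no TP3 control group was analysed here. In 60577 there were 3 control and 3 treated tumors at TP1, 3 control and 4 treated tumors at TP2, and 4 treated tumors at TP3. In HGS2 there were 3 and 3 at TP1, 4 and 3 at TP2, and 3 treated tumors at TP3, and 1 further HGS2 TP3 treated tumor was left out of the fits because the study's own tables omit it. The same lines without any host were sequenced as monocultures, with 2 libraries per line. The driver alleles of the lines are not given in the sources used here, each model rests on 1 line, and host strain, line and day of first dose change together between the models, so their parts cannot be told apart.

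Tregs are CD4 T cells that restrain other lymphocytes. The transcription factor FOXP3 sets their identity, CD25 (the product of Il2ra) lets them capture interleukin 2, and they often carry Helios (Ikzf2) and the co-stimulatory receptor GITR (Tnfrsf18). CCR4 and CCR8 are carried by Tregs in tumors and other tissues and also by Th2 cells, and CCL17 and CCL22 are made mainly by dendritic cells and macrophages. In ovarian cancer, CCL22 is known for drawing CCR4-bearing Tregs into the tumor. In bulk RNA, fewer cells of a type and less RNA per cell cannot be told apart.

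Both chemokine genes lie on the + strand of chromosome 8 (GRCm38, GENCODE M21), Ccl22 at chr8:94745590-94751699 and Ccl17 at chr8:94810453-94812036, with 58.8 kb between them that holds the chemokine gene Cx3cl1 and a pseudogene, Gnb1-ps3. The receptor genes are both on chromosome 9, Ccr4 at chr9:114490316-114504916 and Ccr8 at chr9:120092114-120094906. Sequence upstream of each chemokine gene is shown because the values of these CCR4 ligands are set side by side below. The bases come from RefSeq (GRCm38.p6, + strand, 5′ to 3′), chr8:94745434-94745589 for Ccl22, which stops where the annotated gene begins, and chr8:94810203-94810452 for Ccl17. Capitals mark the matches to GGGNNNNNCC (NF-kB), TTCNNNGAA (STAT) or TTCNNNNGAA (STAT6) on either strand.
Ccl22: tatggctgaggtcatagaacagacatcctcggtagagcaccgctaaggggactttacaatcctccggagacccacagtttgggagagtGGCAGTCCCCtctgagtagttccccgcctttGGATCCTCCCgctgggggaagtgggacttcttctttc
Ccl17: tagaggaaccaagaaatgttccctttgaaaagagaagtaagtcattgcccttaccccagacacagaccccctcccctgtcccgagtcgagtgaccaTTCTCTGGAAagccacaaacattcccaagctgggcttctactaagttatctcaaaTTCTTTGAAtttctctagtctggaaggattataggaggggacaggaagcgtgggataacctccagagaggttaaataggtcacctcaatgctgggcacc
In the 250 bases before the start, Ccl22 held the NF-kB letters and neither STAT motif, and Ccl17 held both STAT motifs and no NF-kB letters. Of the 7 members with a promoter entry, 3 (Il2ra, Ccr8 and Ccl22) held the NF-kB letters, against 45.8% of all 32817 promoter windows of this length. The STAT letters were in 3 (Foxp3, Tnfrsf18 and Ccl17), against 7.01% of all windows, and the STAT6 letters in 1 (Ccl17), against 5.85%. The 7 members had 8 windows, since Foxp3 had 2, and its STAT letters were in only 1 of them. A member was counted if any of its windows matched, whereas the percentages are of single windows. The matches marked above do not overlap one another. Such matches describe letters and do not show binding.

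Levels are given as CPM, counts scaled to a common library total, with TMM, an edgeR correction for library composition. The tumor libraries held 17839635 to 49299442 counts (median 27358649) and the cell line libraries 31633121 to 42461995 counts. The floor, 3 counts, came to between 0.0663 and 0.170 CPM over the 38 libraries, and it covers counting error only. Pancreatic acinar genes were uneven between libraries: the sum of 6 such genes ran from 7.16 to 97509 CPM in HGS2 TP2 control tumors and from 10.1 to 1134 CPM in 60577 TP2 control tumors. The sum of 6 T cell receptor complex and T cell surface genes ran from 6.24 to 18.1 CPM in 60577 TP1 control tumors and from 17.9 to 64.4 CPM in HGS2 TP1 control tumors, so T cell RNA was present in the untreated tumors of both models. In the cultured lines, Cd3d and Cd3g had no count. There the 6 genes summed to 0.950 to 1.47 CPM in 60577 and 0.495 to 0.778 CPM in HGS2. Trac held most of that, at 1.33 and 0.839 CPM in 60577 and 0.711 and 0.495 CPM in HGS2.

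Per kilobase of exon, Ikzf2 stood highest of the 8 genes in control tumors of both models, with a median of 2.81 CPM per kb (1.38 to 3.34, n = 6) in 60577 and 2.34 (1.78 to 2.99, n = 7) in HGS2. Tnfrsf18 followed at 2.04 and 1.75, then Ccl17 at 1.85 and 1.66, and Ccl22 at 1.02 and 1.50 CPM per kb. Foxp3, the defining gene, had medians of 0.504 and 0.681 CPM per kb, near Il2ra at 0.509 and 0.660. Ccr8 stood at 0.355 and 0.774. Ccr4 was the lowest in both models, at 0.199 and 0.310 CPM per kb. The ranges of every pair of neighbors in these orders overlapped, so the order is one of medians.

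The cultured lines served as the host-free background, on a scale set apart from that of the tumors because the tables were normalized separately. Ikzf2 was the member with most counts in the lines, 12.5 and 18.6 CPM in 60577 and 11.5 and 14.9 CPM in HGS2, so part of its level in a tumor can come from malignant cells. Tnfrsf18 had 1.17 and 1.79 CPM in 60577 and 0.0275 and 0.102 CPM in HGS2, the HGS2 values resting on 1 count and 3 counts. It was lower in the HGS2 line, by a log2 difference of -4.55 ± 0.82 (SE, adjusted p = 0.0212) in the edgeR quasi-likelihood test, with p adjusted over all genes by Benjamini-Hochberg. That call was the only one among the 2 members that passed the filter on low counts in the lines, where 8.38% of 13742 genes were called lower, and it was lost without either 60577 library (adjusted p = 0.0748 and 0.151). Ccl17 had 16 and 19 counts in the 60577 line, 0.434 and 0.420 CPM, and 0 in the HGS2 line. Part of the Tnfrsf18 and Ccl17 levels in 60577 tumors can therefore also come from malignant cells, which was not tested. Foxp3 had 1 and 3 counts in the 60577 line and 0 in the HGS2 line. Il2ra had 0 or 1 count in each library, and Ccl22 had 1 count in 1 library and 0 in the others. Ccr4 and Ccr8 had 0 counts in all 4 libraries, which allows up to 0.0663 to 0.102 CPM.

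**Figure D1:**
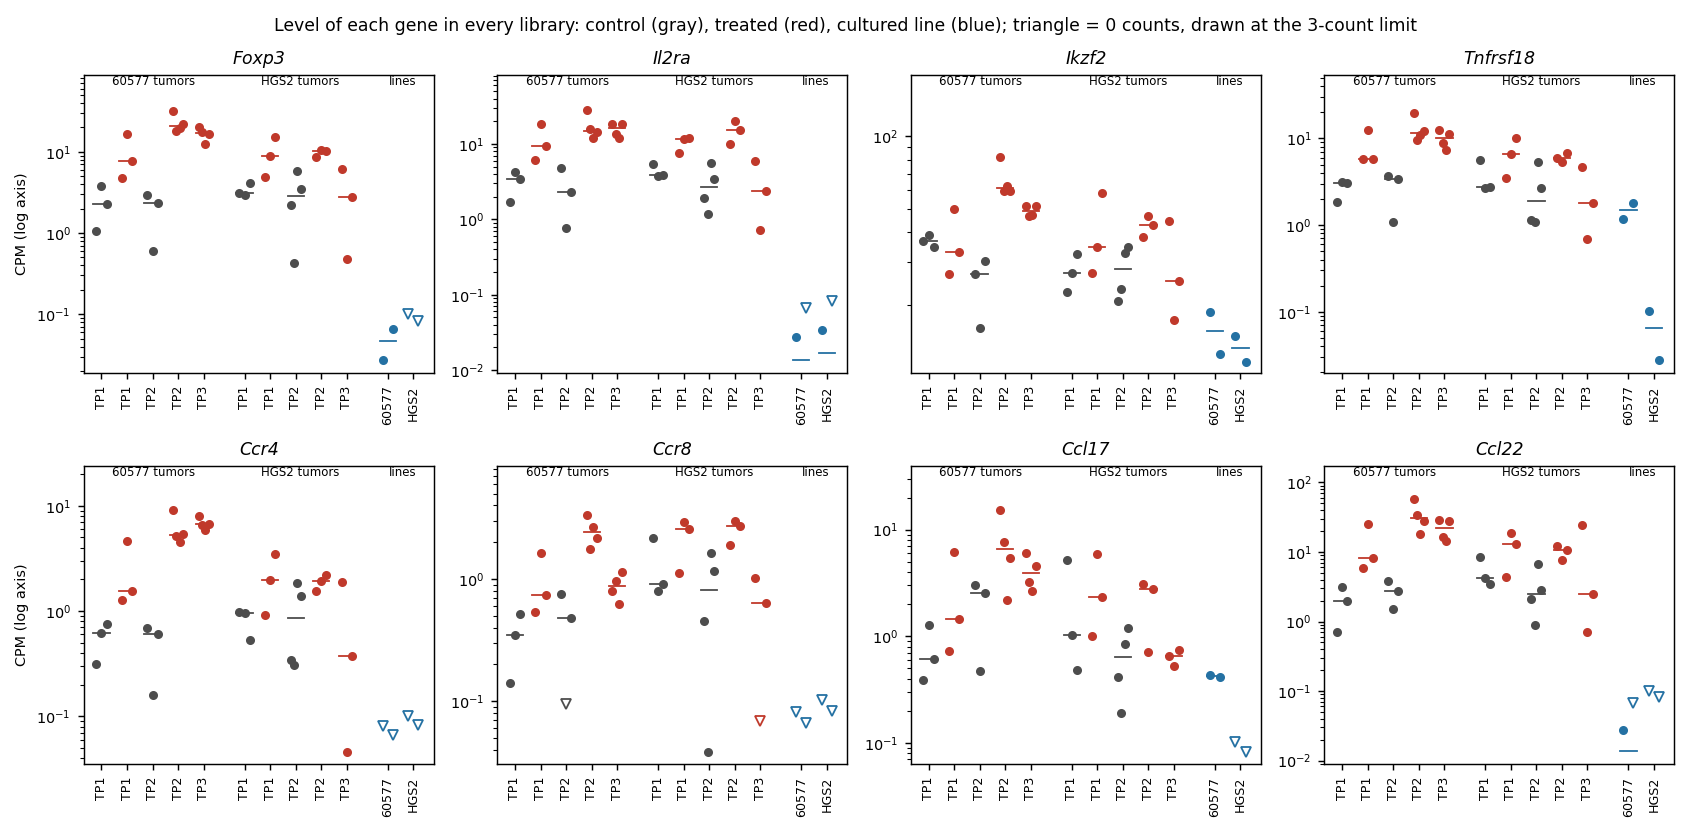
CPM (log axis) of each of the 8 genes in every library, by model, time point and treatment, with control tumors in gray, treated tumors in red and cultured lines in blue; a short line marks the median of a group, and a triangle marks 0 counts, drawn at the level of 3 counts. In 60577 the TP2 treated tumors stand above the TP2 controls for every gene except Ccl17, whose highest control lies within the treated range, and in HGS2 the groups lie closer together.

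In 60577 tumors the Treg genes, both receptors and Ccl22 stood higher after chemo, with all 8 genes called at TP2. A gene was called at an adjusted p below 0.05 (edgeR quasi-likelihood test, all 16241 genes tested) and a fold change above 2. At TP1, 5 of the 8 genes were called higher, where 9.65% of all genes were called higher and 5.96% lower. At TP2 it was 8 of 8, against 14.8% higher and 9.61% lower, and at TP3 against the TP2 controls 5 of 8, against 14.2% and 10.2%. No member was called lower in these 3 comparisons. The median log2 fold change of the 8 genes was 1.84, 2.72 and 2.21, beside -0.00, 0.03 and -0.00 for all genes. Every treated tumor lay above every control tumor for 6 of the 8 genes at TP1 and 7 at TP2, where 26.9% and 23% of all genes did so. For TP3 against the TP2 controls it was 6 of the 8 genes, where 4806 of the 16241 genes did so. The TP2 and TP3 comparisons share their 3 control tumors and are not independent, and in the TP3 comparison treatment and the later day cannot be told apart. The TP1 count was 2 without treated replicate 2, the highest of its group for each of the 8 genes, and 3 without control replicate 1, which lost Il2ra and Tnfrsf18. Values after ± are standard errors (SE) of the log2 fold change.

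Foxp3 was measured at 1.05, 2.27 and 3.82 CPM in TP1 control tumors and 4.78, 7.67 and 16.5 CPM in TP1 treated tumors. At TP2 it stood at 0.605, 2.34 and 2.96 CPM in controls and 18.1, 19.4, 22.1 and 31.4 CPM in treated tumors, and at TP3 the treated tumors had 12.5, 16.5, 17.7 and 20.3 CPM. No treated tumor overlapped the controls it was compared with. Foxp3 rose at TP1 by 2.01 ± 0.54 (SE, adjusted p = 0.00997) and at TP2 by 3.60 ± 0.55 (SE, adjusted p = 9.59e-05) on the log2 scale, 12.1-fold at TP2. At TP3 it was 3.07 ± 0.54 (SE, adjusted p = 2.44e-04) above the TP2 controls. The gene lies at chrX:7573644-7595245 and overlaps Ccdc22, Ppp1r3f and Gm36995 on the opposite strand and Flicr (0 to 85 counts per tumor) on its own strand. The strand setting of the counting is not given in the sources used here, so reads from these overlaps cannot be told apart from Foxp3 reads.

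Il2ra, the CD25 gene at chr2:11642807-11693193, had 1.68, 3.47 and 4.29 CPM in TP1 controls and 6.15, 9.46 and 18.3 CPM in TP1 treated tumors. At TP2 it had 0.764, 2.34 and 4.77 CPM in controls and 11.9, 14.3, 15.6 and 28.5 CPM in treated tumors, and at TP3 11.9, 13.8, 18.4 and 18.5 CPM. Again the treated tumors lay apart from the controls in each comparison. The log2 fold change was 1.83 ± 0.54 (SE, adjusted p = 0.0174) at TP1, 2.79 ± 0.54 (SE, adjusted p = 5.81e-04) at TP2 and 2.56 ± 0.54 (SE, adjusted p = 0.00101) at TP3.

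Tnfrsf18, the GITR gene at chr4:156026164-156028895, had 1.86, 3.05 and 3.16 CPM in TP1 controls and 5.83, 5.84 and 12.4 CPM in TP1 treated tumors. At TP2 the values were 1.08, 3.39 and 3.68 CPM in controls and 9.61, 11.1, 12.1 and 19.7 CPM in treated tumors, and at TP3 7.42, 8.88, 11.1 and 12.6 CPM. The groups did not overlap. Tnfrsf18 rose by 1.56 ± 0.43 (SE, adjusted p = 0.0110), 2.33 ± 0.42 (SE, adjusted p = 3.24e-04) and 1.86 ± 0.41 (SE, adjusted p = 0.00147) at TP1, TP2 and TP3. An antisense gene, Gm16008, overlaps it and held 0 to 108 counts per tumor. Without TP1 treated replicate 2, the TP1 call was lost for Foxp3 (adjusted p = 0.0624), Il2ra (0.0933) and Tnfrsf18 (0.0658).

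Ikzf2, the Helios gene at chr1:69531214-69687245, moved least. It had 34.8, 36.7 and 38.8 CPM in TP1 controls and 27.0, 33.2 and 49.8 CPM in TP1 treated tumors, which overlapped, with a log2 fold change of -0.01 ± 0.22 (SE, adjusted p = 0.978). In TP2 tumors it had 16, 26.7 and 30.5 CPM in controls and 59.3, 59.4, 62.4 and 81.9 CPM in treated tumors, which did not overlap, and it rose by 1.49 ± 0.22 (SE, adjusted p = 6.71e-05). The TP3 treated tumors had 46.6, 47.0, 51.2 and 51.2 CPM, all above the TP2 controls. The TP3 log2 difference of 0.99 ± 0.21 (SE, adjusted p = 0.00134) passed the test and missed the fold limit, and with the replicate number as a block it passed both at 1.00 ± 0.25 (SE, adjusted p = 0.00559). The 5 epithelial genes, made by the malignant cells, were called lower at TP1, TP2 and TP3, and their sum went from 1551 to 1897 CPM in TP1 controls and 1833 to 2901 CPM in TP2 controls to 300 to 606, 261 to 551 and 201 to 324 CPM in the treated groups. The part of malignant cell RNA in the Ikzf2 level was not tested.

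Ccr4, the receptor for CCL17 and CCL22, had 0.316, 0.624 and 0.746 CPM in TP1 controls and 1.27, 1.56 and 4.58 CPM in TP1 treated tumors. By TP2 the gene had 0.159, 0.605 and 0.691 CPM in controls and 4.52, 5.21, 5.40 and 9.17 CPM in treated tumors, and at TP3 5.82, 6.63, 6.78 and 8.01 CPM. The groups lay apart in each comparison, and the TP3 tumors lay within the range of the TP2 treated tumors. Ccr4 rose by 2.12 ± 0.52 (SE, adjusted p = 0.00628), 3.71 ± 0.53 (SE, adjusted p = 5.18e-05) and 3.79 ± 0.53 (SE, adjusted p = 3.38e-05) at TP1, TP2 and TP3. At TP2 this was 13.0-fold.

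Ccr8, a receptor of tumor Tregs and Th2 cells, had 0.140, 0.351 and 0.519 CPM in TP1 controls and 0.542, 0.740 and 1.63 CPM in TP1 treated tumors, a separation that did not pass the test (1.50 ± 0.73, adjusted p = 0.128). At TP2 it had 0, 0.484 and 0.757 CPM in controls, the lowest resting on 0 counts, and 1.77, 2.16, 2.66 and 3.37 CPM in treated tumors. At TP3 the values were 0.621, 0.805, 0.957 and 1.15 CPM. The TP2 groups did not overlap and the TP3 tumors overlapped the TP2 controls. Ccr8 rose at TP2 by 2.65 ± 0.68 (SE, adjusted p = 0.00405) and was not called at TP3 (1.08 ± 0.68, adjusted p = 0.198). Between the TP2 and TP3 treated tumors, which did not overlap, Ccr8 fell with a log2 change of -1.57 ± 0.57 (SE, adjusted p = 0.0428), a call lost with the replicate block (-1.57 ± 0.64, adjusted p = 0.0741).

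Ccl22 had 0.701, 1.98 and 3.12 CPM in TP1 controls and 5.86, 8.06 and 25.2 CPM in TP1 treated tumors. In TP2 tumors it had 1.53, 2.78 and 3.82 CPM in controls and 18.0, 27.9, 33.6 and 57.1 CPM in treated tumors, and at TP3 14.5, 16.4, 28.1 and 28.6 CPM. No treated tumor overlapped its controls. The log2 fold change was 2.75 ± 0.62 (SE, adjusted p = 0.00352) at TP1, 3.71 ± 0.61 (SE, adjusted p = 1.66e-04) at TP2, which is 13.0-fold, and 3.00 ± 0.59 (SE, adjusted p = 6.47e-04) at TP3.

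Ccl17, the other CCR4 ligand, had 0.386, 0.617 and 1.29 CPM in TP1 controls and 0.733, 1.44 and 6.11 CPM in TP1 treated tumors. By TP2 the gene had 0.478, 2.54 and 2.99 CPM in controls and 2.17, 5.40, 7.63 and 15.3 CPM in treated tumors, and at TP3 2.68, 3.25, 4.55 and 6.07 CPM. Treated and control tumors overlapped in all 3 comparisons. Ccl17 was not called at TP1 (1.85 ± 0.84, adjusted p = 0.105) or TP3 (1.03 ± 0.75, adjusted p = 0.265) and was called at TP2 (1.97 ± 0.76, adjusted p = 0.0376). The TP2 call was lost with the replicate block (1.76 ± 0.83, adjusted p = 0.0916) and without any 1 of control replicates 2 and 3 and treated replicates 1 and 2, where the adjusted p ran from 0.0533 to 0.125. The difference between the changes of Ccl22 and Ccl17 was not tested.

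**Figure D2:**
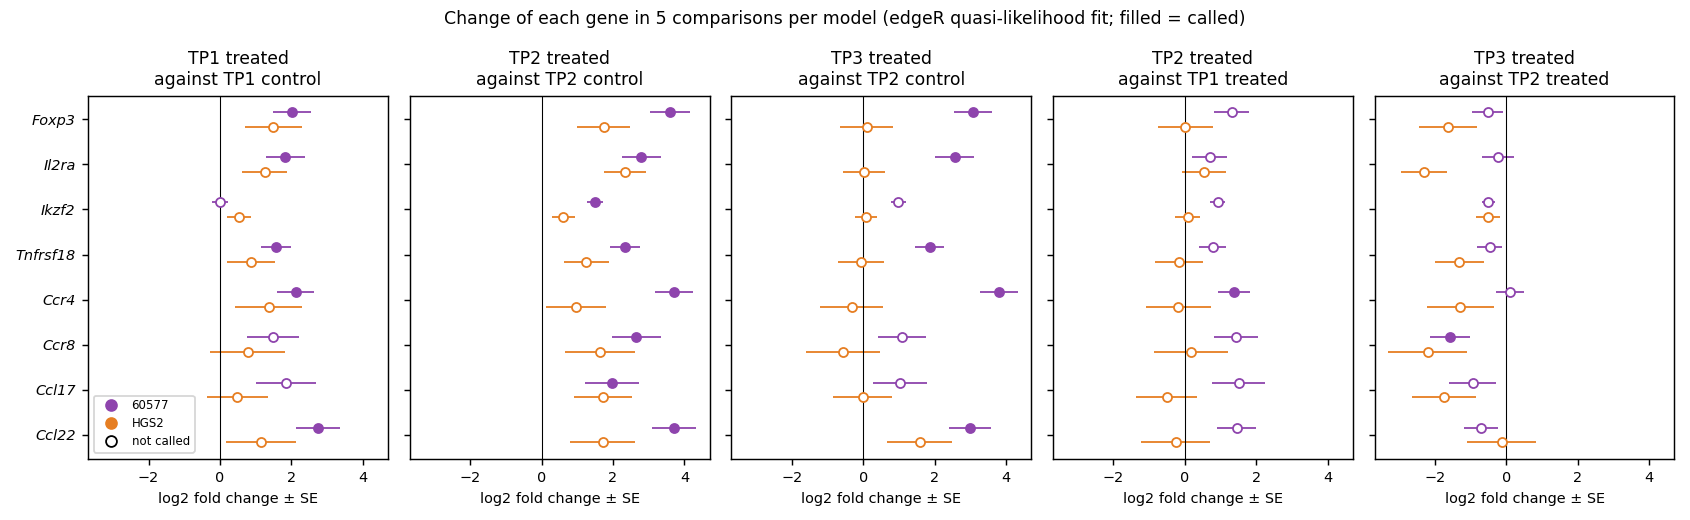
Log2 fold change with its standard error for each of the 8 genes in 5 comparisons, by model, from the edgeR quasi-likelihood fit; filled points were called. In 60577 all 8 genes were called at TP2 and 5 at TP1 and at TP3, and in HGS2 no point is filled.

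Between time points in treated 60577 tumors, 1 of the 8 genes was called higher from TP1 to TP2, where 3.58% of all genes were called higher. This was Ccr4, whose groups overlapped (1.36 ± 0.45, adjusted p = 0.0456), and the call was lost with the replicate block (1.40 ± 0.52, adjusted p = 0.0967). Foxp3 (1.31 ± 0.48, adjusted p = 0.0673), Ccl22 (1.45 ± 0.54, adjusted p = 0.0677) and Ccr8 (1.43 ± 0.62, adjusted p = 0.109) did not pass. Ikzf2 passed the test below the fold limit (0.92 ± 0.21, adjusted p = 0.0125). From TP2 to TP3, 1 of the 8 genes, Ccr8, was called lower, where 4.4% of all genes were. The other 7 had log2 changes from -0.94 ± 0.66 for Ccl17 to 0.09 ± 0.39 for Ccr4. Every TP3 tumor lay below every TP2 treated tumor for 2 of the 8 genes, Ccr8 and Ikzf2, as for 1813 of the 16241 genes. In control tumors no member was called between TP1 and TP2, nor was any gene (0%). In that comparison 1 member, Ikzf2, had an unadjusted p under 0.05 in edgeR (-0.59 ± 0.22, adjusted p = 0.464), as did 9.24% of all genes. DESeq2 and limma-voom called 0 and 0 members, beside 70 and 0 of all genes.

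In HGS2 tumors no member was called in any of 6 comparisons, nor was any of the 16241 genes by edgeR: 0% for treated against control at TP1 and 0% at TP2, 0% for TP3 against the TP2 controls, 0% and 0% between treated groups, and 0% between control groups. At an unadjusted p under 0.05 there were 2 members at TP2 (Il2ra and Foxp3), where 7.59% of all genes were. There was 1 between TP2 and TP3 treated tumors (Il2ra), where 10.4% of all genes were, and 0 in the other 4 comparisons. DESeq2 called 1 member, Il2ra, lower from TP2 to TP3, where it called 105 genes in either direction. It called no member elsewhere, and limma-voom called 0 throughout. The members' median log2 fold change was 1.00 at TP1 and 1.67 at TP2. Against the TP2 controls it was -0.00 at TP3, and 0.41 with the left-out tumor. For all genes it was 0.00, -0.02 and 0.00. Every treated tumor lay above every control for 2 members at TP1 (Foxp3 and Il2ra) and 6 at TP2, where 3.18% and 6.47% of all genes did so. Every TP3 tumor lay below every TP2 treated tumor for 4 members, as for 1603 of the 16241 genes. Control replicate 2 of TP2 gave the lowest TP2 control value of Foxp3, Il2ra, Tnfrsf18, Ccr4, Ccr8, Ccl17 and Ccl22. The lower ends of those control ranges therefore rest on 1 tumor.

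Foxp3 in HGS2 had 2.98, 3.12 and 4.12 CPM in TP1 controls and 4.96, 8.91 and 15.0 CPM in TP1 treated tumors (1.49 ± 0.80, adjusted p = 0.999). At TP2 it had 0.422, 2.20, 3.52 and 5.73 CPM in controls and 8.73, 10.3 and 10.4 CPM in treated tumors (1.74 ± 0.74, adjusted p = 0.632), and at TP3 0.484, 2.74 and 6.12 CPM (0.10 ± 0.74, adjusted p = 1.00). The treated tumors lay above the controls at TP1 and TP2, and at TP3 they spread over the control range. Il2ra had 3.77, 3.88 and 5.39 CPM in TP1 controls and 7.65, 11.7 and 11.9 CPM in TP1 treated tumors. In TP2 tumors it had 1.19, 1.89, 3.49 and 5.61 CPM in controls and 9.85, 15.5 and 20.2 CPM in treated tumors, and at TP3 0.714, 2.40 and 5.95 CPM. It had the largest TP2 log2 fold change of the members in HGS2 (2.33 ± 0.59, adjusted p = 0.588), and its TP3 tumors all lay below the TP2 treated tumors (-2.31 ± 0.65, adjusted p = 0.411). 

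Tnfrsf18 ran from 2.64 to 5.63 CPM in TP1 controls, 3.48 to 10.01 in TP1 treated tumors, 1.07 to 5.33 in TP2 controls, 5.37 to 6.78 in TP2 treated tumors and 0.691 to 4.69 in TP3 treated tumors. Ikzf2 ran from 22.5 to 32.4, 27.2 to 58.3, 20.7 to 34.7, 38.3 to 46.6 and 17.3 to 44.7 CPM in the same order. For both genes the TP2 groups lay apart, and treated and control tumors overlapped at TP1 and at TP3, with TP2 log2 fold changes of 1.25 ± 0.63 and 0.61 ± 0.32.

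Ccr4 had 0.307, 0.341, 1.39 and 1.83 CPM in TP2 controls and 1.54, 1.91 and 2.19 CPM in TP2 treated tumors, which overlapped (0.96 ± 0.85). Ccr8 had 0.0384, 0.455, 1.16 and 1.63 CPM in TP2 controls and 1.89, 2.73 and 2.98 CPM in TP2 treated tumors, which lay apart (1.64 ± 0.98). The lowest of these controls was below the floor of its library, 0.115 CPM. At TP3 Ccr8 was 0, 0.638 and 1.02 CPM, the lowest resting on 0 counts, and every TP3 tumor lay below the TP2 treated tumors (-2.20 ± 1.11, adjusted p = 0.506). At TP1 both receptors overlapped between controls and treated tumors, with 0.527 to 0.972 against 0.915 to 3.47 CPM for Ccr4 and 0.793 to 2.14 against 1.12 to 2.95 CPM for Ccr8. None of these differences passed the test.

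Ccl22 had 3.49, 4.23 and 8.58 CPM in TP1 controls and 4.31, 12.9 and 18.8 CPM in TP1 treated tumors. By TP2 the gene had 0.883, 2.08, 2.87 and 6.67 CPM in controls and 7.59, 10.8 and 12 CPM in treated tumors, and at TP3 0.714, 2.51 and 24.2 CPM. The TP2 groups lay apart (1.71 ± 0.91, adjusted p = 0.674), and 1 of the 3 TP3 tumors was far above the other two. Ccl17 had 0.192, 0.417, 0.854 and 1.20 CPM in TP2 controls and 0.716, 2.79 and 3.11 CPM in TP2 treated tumors, which overlapped (1.72 ± 0.82, adjusted p = 0.652). At TP1 it ran from 0.479 to 5.16 CPM in controls and from 1.00 to 5.96 CPM in treated tumors, and at TP3 from 0.530 to 0.751 CPM. The highest Ccl17 levels in HGS2 were in 1 treated and 1 control tumor of TP1.

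The models were compared in 1 fit of all 33 tumors. No member differed between the models in its response at TP1 (all genes 1.45%) or at TP2 (6.9%), or between the control tumors (22%). At an unadjusted p under 0.05 there were 0, 2 and 1 members, against 18.8%, 29.0% and 56.7% of all genes. DESeq2 called 0, 1 and 1 members, beside 721, 1666 and 3631 of all genes. With limma-voom 0 members were called in each, beside 214, 949 and 3368 of all genes. The TP2 response of Ccr4 had a log2 difference, HGS2 minus 60577, of -2.75 ± 1.04 (SE, adjusted p = 0.0839), that of Foxp3 -1.87 ± 0.94 (SE, adjusted p = 0.186) and that of Il2ra -0.48 ± 0.81 (SE, adjusted p = 0.721). Members were called in 60577 and none in HGS2, but a difference between the models in the members' response was not shown. In control tumors Ccr8 ran from 0.140 to 0.519 CPM (TP1) and 0 to 0.757 CPM (TP2) in 60577 and from 0.793 to 2.14 CPM (TP1) and 0.0384 to 1.63 CPM (TP2) in HGS2. The log2 difference, 1.45 ± 0.67 (SE, adjusted p = 0.0748), did not pass. Foxp3 differed by 0.55 ± 0.49 (SE, adjusted p = 0.360) and Ikzf2 by -0.12 ± 0.20 (SE, adjusted p = 0.647).

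Because T cell and dendritic cell genes also stood higher in 60577 TP2 treated tumors, each member was set against reference genes of the cell type it is known from. For the Treg genes and receptors these were 6 T cell genes (Cd3d, Cd3e, Cd3g, Cd6, Trac and Trbc2), and for the chemokines 6 dendritic cell genes (Flt3, Zbtb46, Xcr1, Clec9a, Cd209a and Batf3). The quantity is log2 CPM of the gene minus the mean log2 CPM of the reference genes, and treated and control labels were permuted within TP1 and TP2 (two-sided exact permutation test, 700 arrangements, smallest p 0.00143, adjusted over 16 tests). The reference genes moved too: in 60577, 4 of the 6 T cell genes were called higher at TP1, 5 at TP2 and 6 at TP3, and 1, 5 and 4 of the 6 dendritic cell genes. Of all genes, 9.65%, 14.8% and 14.2% were called higher. At 60577 TP1 the summed dendritic cell genes stood at 46.3 to 52.5 CPM in controls and 38.9 to 50.2 CPM in treated tumors, and in HGS2 no dendritic cell gene was called by edgeR. The cultured lines held Zbtb46 at 15.9 and 15.6 CPM (60577) and 15.5 and 12.2 CPM (HGS2), so part of this reference can be malignant cell RNA. Since TP3 had no controls, TP3 tumors were described and not tested.

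In 60577, Foxp3 rose relative to the T cell genes by 0.53 (exact permutation p = 0.00857, adjusted 0.0400). The ratio was 0.18, 0.26 and 0.49 in TP1 controls and 0.40, 0.73 and 0.83 in TP1 treated tumors, which overlapped, and -0.34, -0.02 and 0.49 in TP2 controls and 0.50, 0.55, 0.92 and 1.06 in TP2 treated tumors, which did not. Relative to Cd4 alone the adjusted p for Foxp3 was 0.210. Leaving out 1 tumor in turn lost the Foxp3 call for 10 of the 13 tumors, where the adjusted p of the permutation test was 0.0571 to 0.0800. Ikzf2 went the other way and fell with a log2 difference of -1.61 (exact permutation p = 0.00143, the smallest possible, adjusted 0.0114), from 2.80, 4.16 and 4.55 in TP2 controls to 1.88, 2.26, 2.35 and 2.74 in TP2 treated tumors, with no overlap at TP1 or TP2. Its own log2 change was -0.01 ± 0.22 at TP1 and 1.49 ± 0.22 at TP2, while the T cell genes had medians of 1.69 and 3.11. The 60577 line held Ikzf2 at 12.5 and 18.6 CPM, so this ratio can include malignant cell RNA. It does not show a fall of Ikzf2 within T cells, and the part of malignant cell RNA was not tested. The other 4 showed 0.40 for Ccr4 (exact permutation, adjusted p = 0.101), 0.05 for Il2ra (0.677), -0.16 for Ccr8 (0.677) and -0.39 for Tnfrsf18 (0.183). The 60577 line also held Tnfrsf18, at 1.17 and 1.79 CPM, so the Tnfrsf18 ratio can include malignant cell RNA. At TP3 the Ccr8 ratio ran from -4.47 to -3.95, below the -2.75 to -1.77 of TP2 treated tumors, while the Foxp3 ratio ran from -0.31 to 0.36 and from 0.50 to 1.06.

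Ccl22 rose relative to the dendritic cell genes in both models, by 1.67 in 60577 (exact permutation p = 0.00143, adjusted 0.0114) and by 0.80 in HGS2 (exact permutation p = 0.0100, adjusted 0.0400). In HGS2 the Ccl22 ratio was -0.88, -0.45, 0.12 and 0.37 in TP2 controls and 0.36, 0.69 and 1.28 in TP2 treated tumors. In 60577 the treated tumors lay above the controls at TP1 (1.54 to 2.79 against -0.47 to 0.38) and at TP2 (1.59 to 2.45 against 0.42 to 1.16), and in HGS2 the TP1 and TP2 groups each overlapped. The 60577 call held without any 1 tumor, and the HGS2 call was lost for 10 of the 13 tumors left out in turn, where the adjusted p of the permutation test was 0.0571 to 0.117. Without Zbtb46 in the reference, an alternative added after the data were seen, the difference was 1.39 in 60577 (exact permutation, adjusted p = 0.0114) and 0.66 in HGS2, where the call was lost (adjusted p = 0.0800). Relative to Flt3 alone the adjusted p was 0.183 in 60577 and 0.183 in HGS2. Relative to mature dendritic cell genes or macrophage genes, the HGS2 value had an adjusted p of 0.110 and 0.0800. The HGS2 line held the mature dendritic cell genes at a sum of 890 to 1147 CPM, so part of that reference can be malignant cell RNA. Ccl17 showed 0.21 in 60577 (exact permutation, adjusted p = 0.689), -0.08 without Zbtb46, and 0.50 in HGS2 (0.534). The 60577 line held Ccl17 at 0.434 and 0.420 CPM, so the Ccl17 ratio in 60577 can include malignant cell RNA. In HGS2, Foxp3 and Il2ra stood 0.70 and 0.79 higher relative to the T cell genes (exact permutation, adjusted p = 0.183 for each). Relative to Cd4 alone the HGS2 Foxp3 value passed (exact permutation, adjusted p = 0.0229).

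**Figure D3:**
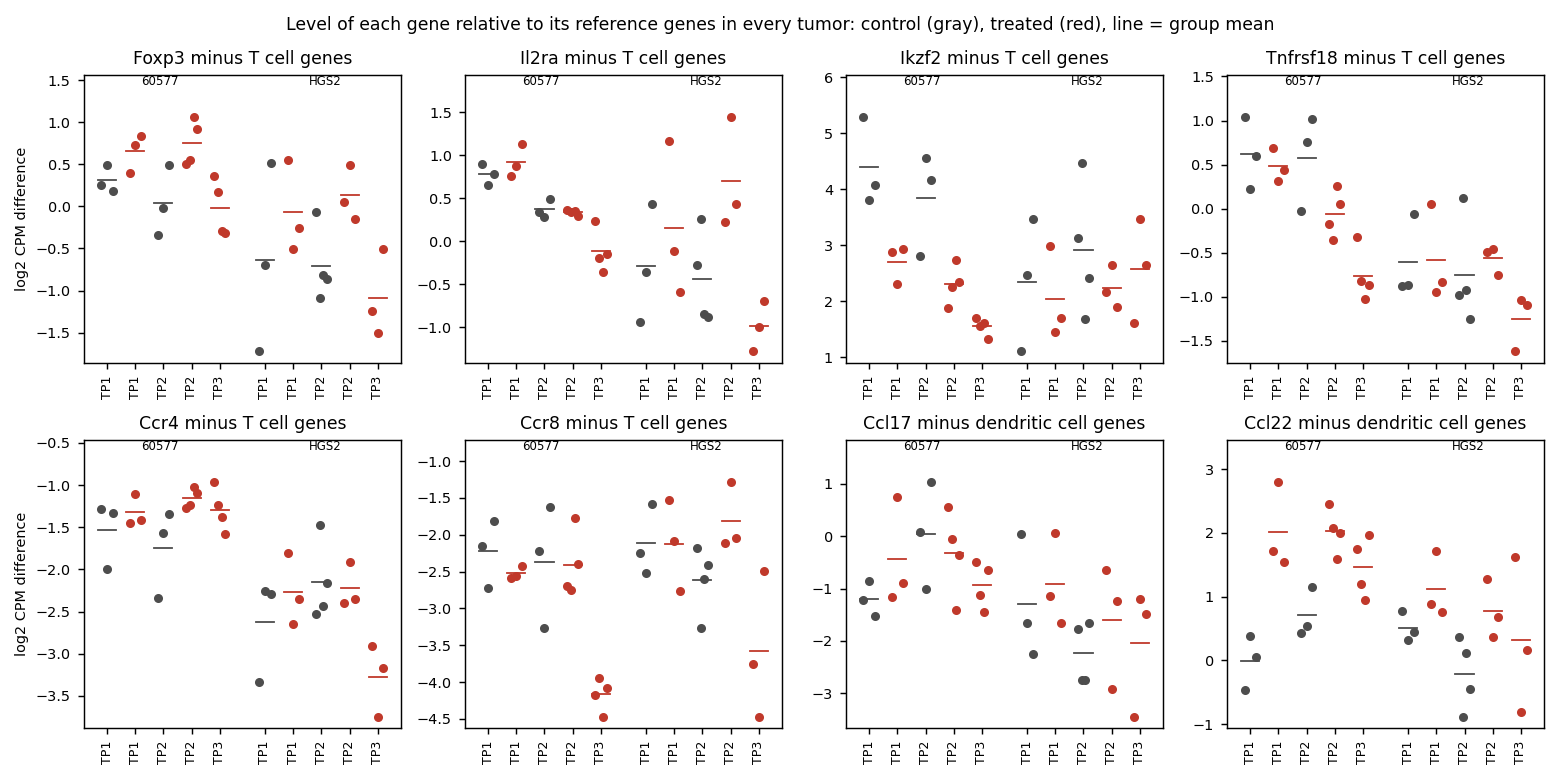
Log2 CPM of each gene minus the mean of its reference genes (T cell genes for 6 members, dendritic cell genes for Ccl17 and Ccl22) in every tumor, by model, time point and treatment, with control tumors in gray, treated tumors in red and a line at each group mean. In 60577 Ikzf2 lies lower and Ccl22 higher in treated tumors, and Ccr8 is lowest at TP3.

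Of 20 other genes of the Treg program, 11 were called higher in 60577 at TP1, 13 at TP2 and 14 at TP3, with medians of 1.26, 1.45 and 1.54. Of all genes, 9.65%, 14.8% and 14.2% were called higher and 5.96%, 9.61% and 10.2% lower. These shares also stand beside the 60577 counts of the lists that follow. The largest TP2 changes were in Klrg1 (4.44 ± 0.81), a receptor of effector Tregs and other effector lymphocytes, Gpr83 (4.30 ± 0.53), a receptor gene enriched in Tregs, Izumo1r (3.72 ± 0.60), the folate receptor 4 gene, and Ctla4 (3.36 ± 0.49), the checkpoint receptor through which Tregs restrain antigen-presenting cells. At TP3, 3 genes fell against the TP2 controls. They were named after their values were seen: Il10 (-1.55 ± 0.30), an inhibitory cytokine, Tnfrsf9 (-1.92 ± 0.42), an activation receptor of T cells, and Nt5e (-1.51 ± 0.24), the CD73 ectoenzyme that makes adenosine. The 60577 line held Nt5e at 42.4 and 62.4 CPM and Tnfrsf9 at 1.93 and 2.85 CPM, and Il10 at 0 counts. In the tumors Nt5e ran from 61.8 to 113 CPM in TP2 controls and from 24.1 to 33.8 CPM at TP3. In HGS2 none of the 20 was called in treated against control tumors by edgeR. At an unadjusted p under 0.05 there were 3 at TP1, 3 at TP2 and 2 at TP3, where 2.54%, 7.59% and 2.50% of all genes were. DESeq2 and limma-voom were not counted over this list.

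Among genes of the interleukin 2 receptor and its signal (7 of 8 passed the filter), 3, 6 and 4 were called higher in 60577 at TP1, TP2 and TP3. At TP2 these included Il2rb (2.89 ± 0.54) and Il2rg (1.41 ± 0.33), which complete the receptor with CD25, and Socs1 (2.21 ± 0.38) and Cish (1.04 ± 0.27), feedback inhibitors that the pathway induces. Il2 itself, the cytokine, did not pass the filter. Of other chemokine and receptor genes of Treg traffic, 3 of 8 passed the filter, and Ccr6 was called at TP2 (3.29 ± 0.66) and TP3 (3.48 ± 0.66), the latter with Ccl8 (2.11 ± 0.74), a ligand of CCR8 in mice. Ccl1, the other CCR8 ligand, did not pass the filter.

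Genes of other cells that carry or make the members moved in the same tumors. Of the Th2 and ILC2 list, 5 of 9 genes passed the filter and 3, 4 and 4 were called higher in 60577, at TP2 Il17rb (3.89 ± 0.80), Il1rl1 (3.63 ± 0.34), Gata3 (1.45 ± 0.18) and Rora (1.33 ± 0.14). Il1rl1, the receptor for interleukin 33, is also carried by Tregs. Summed levels of the other lists moved as well. The T cell genes summed to 8.60 to 23.6 CPM in 60577 TP2 controls and 72.0 to 151 CPM in TP2 treated tumors, Cd4 counted 0.510 to 8.65 and 21.1 to 46.8 CPM, and the dendritic cell genes summed to 35.4 to 51.2 and 75.2 to 83.0 CPM. B cell genes (5 of 5 called at TP2, sum 2.87 to 19.4 against 66.3 to 180 CPM) and adipocyte genes (5 of 5, sum 2.64 to 16.9 against 73.3 to 608 CPM) rose with them, and pancreatic genes fell (6 of 6, sum 10.1 to 1134 against 5.09 to 17.1 CPM). Of 3 tested CD8 and cytotoxic genes, 0, 3 and 3 were called higher at TP1, TP2 and TP3. At TP1, 1 had an unadjusted p under 0.05, as did 43.3% of all genes. Of 7 mature dendritic cell genes, 2, 4 and 3 were called higher, among them Il4i1 (3.34 ± 0.43 at TP2), and at TP3 1, Cacnb3, was called lower (-1.35 ± 0.11). The cultured lines held these 7 genes at a sum of 419 to 564 CPM (60577) and 890 to 1147 CPM (HGS2). Cacnb3 alone had 204 and 214 CPM in the 60577 line. Part of this list can therefore be malignant cell RNA, which was not tested. Of 6 macrophage genes, 1, 2 and 2 were called higher. The part of these cells in the members' changes was not tested.

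**Figure D4:**
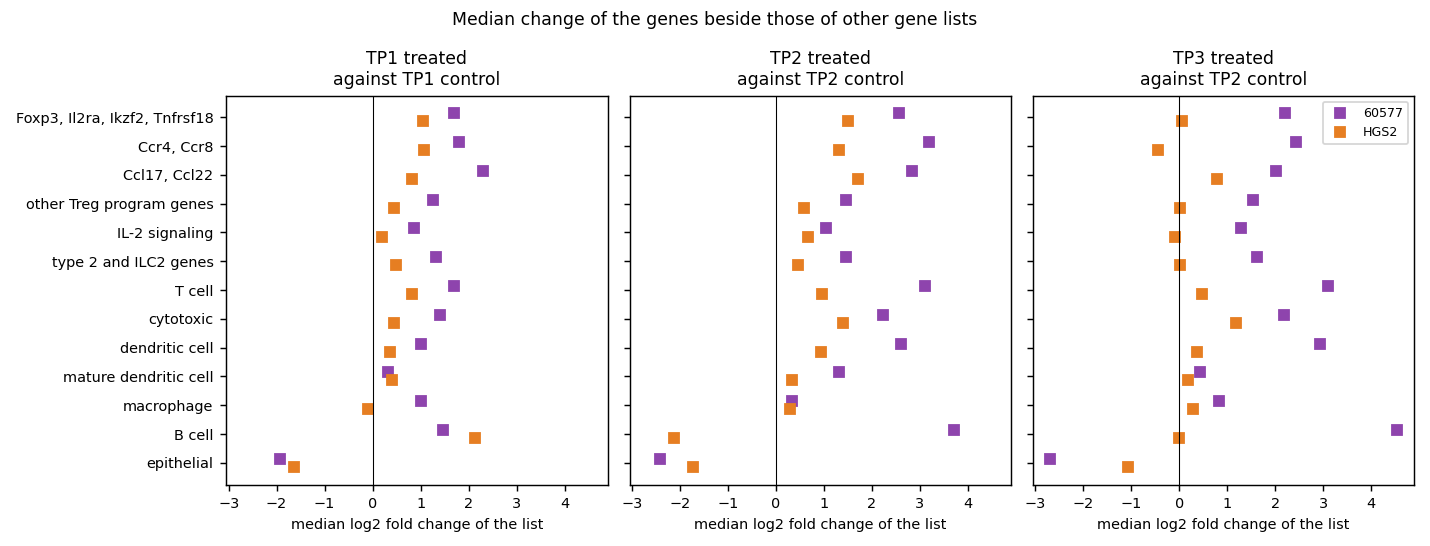
Median log2 fold change of the genes of each list beside those of the members, by model and comparison. In 60577 the Treg genes, receptors and ligands of the members have TP2 medians of 2.56, 3.18 and 2.84, in the range of the T cell list (3.11) and the dendritic cell list (2.61), and the epithelial list is at -2.42.

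The models did differ in some genes of the same lists. The TP1 response was smaller in HGS2 for Lrrc32 (-1.91 ± 0.46, adjusted p = 0.0311, edgeR), the gene of the GARP receptor that holds latent TGF-beta on Tregs, and for Il1rl1 (-3.46 ± 0.79, adjusted p = 0.0228, edgeR). The TP2 response was smaller in HGS2 for Gpr83 (-5.63 ± 1.32), Izumo1r (-4.03 ± 1.17) and Lrrc32 (-1.40 ± 0.44), for Retnla, a gene of alternatively activated macrophages (-5.06 ± 1.44), and for 3 of the 5 B cell genes. No other of the 20 other Treg genes was called lower at TP1 or TP2. Of all 16241 genes, 162 were called lower in the TP1 difference and 522 in the TP2 difference. The HGS2 TP2 control tumors spread widely in B cell genes, whose sum ran from 7.50 to 355 CPM (median 40.1), against 16.9 to 36.8 CPM in treated tumors. Within HGS2 the TP2 change was -1.32 ± 1.25 for Gpr83 and -0.29 ± 0.92 for Izumo1r. Leaving out single tumors was not counted for these genes. In control tumors, 4 of 6 T cell genes, all 3 tested cytotoxic genes and 6 of the 20 other Treg genes were called higher in HGS2. Of all 16241 genes, 2146 were called higher and 1431 lower there, 22% in either direction. The list genes called higher were led by Cd8a (3.44 ± 0.86) and, among the Treg genes, Tigit (2.36 ± 0.57), an inhibitory receptor of Tregs and effector T cells. Of the 20, 1 was called lower, Il10 (-1.49 ± 0.29), named after its values were seen, and 0 of the 8 members were called.

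Within groups, the members varied together. Over deviations of log2 CPM from the group means, Foxp3 and Il2ra had a Pearson r of 0.94 in 60577 (17 tumors) and 0.91 in HGS2 (16 tumors), and Tnfrsf18 and Ccr4 0.95 and 0.94. These are descriptions, since the points share tissue makeup and library composition. Ccl17 stood apart in HGS2, where its r with the other members ran from 0.06 (Ikzf2) to 0.55 (Tnfrsf18), while in 60577 it ran from 0.71 (Ccr8) to 0.92 (Ccl22). Of 13925 protein-coding genes ranked by the lower of both r values, those most like Foxp3 were Cd2, an adhesion receptor of T and NK cells (0.94 and 0.93), Sh2d1a, the SAP adaptor of T and NK cells (0.93 and 0.94), the kynurenine enzyme gene Kmo (0.93 and 0.92), Gimap7 (0.92 and 0.94) and Cd247, the CD3 zeta chain (0.92 and 0.93). Those most like Ccl22 were the pattern receptor gene Tlr11 (0.90 and 0.93), Il12b (0.89 and 0.89), the interleukin 12 subunit of dendritic cells, Cd247 (0.88 and 0.91), Il2ra (0.89 and 0.88) and Il4i1 (0.89 and 0.88).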

How the data were processed

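Bulk RNA sequencing covered 34 omental tumors and 4 cell line libraries. Per the study's methods and the submitters' processing notes, libraries were strand-specific, paired-end and depleted of rRNA, and reads passed through Trim Galore 0.6.5 and STAR 2.7.0f on GRCm38. The authors deposited RSEM expected counts per gene without normalization or filter. The deposited values can hold decimals and were rounded. Symbols and positions came from GENCODE M21. Groups came from the labels, and p-values measure the spread between these samples. No replicate repeated another: the lowest chi-square of a pair, divided by its degrees of freedom, was 9.38.

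Genes that reached 1 CPM in 25% or more of the libraries were tested with edgeR 4.0.16 (TMM, quasi-likelihood test, two-sided, R 4.3.3), with the 5 groups of each model fitted together, the models jointly for contrasts between them, and the lines apart. A call needed an adjusted p below 0.05 over all tested genes and a log2 fold change beyond 1 in either direction. The SE was obtained from the log2 fold change and the F statistic. For relative levels, log2 CPM carried a prior count of 2. Alternatives were DESeq2 1.42.0, limma-voom (limma 3.58.1), other filters, scalings, a length and GC offset, a replicate block, all 34 tumors, other reference genes, and leaving out each library. HGS2 TP3 treated replicate 1 was left out of the fits and used in the all-tumor alternative. The members and gene lists were chosen with earlier results of these data known. Named genes were the 8 members, in each list at most 4 called genes of largest change or, with none, that of lowest adjusted p, and the 5 genes most like Foxp3 and Ccl22. The deviations of same-numbered treated and control tumors from their group means had r from 0.114 to 0.144 in 60577 and from 0.138 to 0.296 in HGS2 at TP2. Tumors with different numbers were not compared, and the labels do not tie replicate numbers to mice, so these r values cannot show a pairing. Block values are printed where they change a call. The scripts were tested on simulated data.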

Additional observations from a re-analysis of the deposited data

Results flagged for a closer look

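In 60577 TP2 treated tumors, replicate 1 had 81.9 CPM of Ikzf2, and the other 3 tumors had 59.3 to 62.4 CPM. This tumor lay further from its group than Dixon's 95% limit allows. With 8 genes in 3 groups of 4 tumors, 24 such sets of values were tested, which share tumors, and 1 passed that limit. Chance passes about 1 in 20.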

How the results depend on the processing

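Of 496 counts of members recomputed, 431 stayed within 1.5 times the reported count, and of 3572 single values 45 lost a call, 32 gained one and 0 called values changed sign. Counts that moved further were these, and their cause was not tested. The TP2 against TP1 treated count in 60577 (1) was 0 without a filter, with filterByExpr, with the replicate block, with the block and the length and GC offset, and with both models fitted together. It was 2 with the length and GC offset, and 3 with limma-voom and with DESeq2. The TP3 against TP2 treated count (1) was 0 without a filter, with filterByExpr, with the block and with both models together, and 2 with the length and GC offset, with or without the block. The 60577 TP1 count (5) was 2 with both models together. DESeq2 called 1 member, where edgeR called 0, in HGS2 from TP2 to TP3 (Il2ra), in the TP2 difference between models (Ccr4) and in the control tumors (Ccr8). The cell line count (1) was 2 without a filter. The count relative to reference genes was 1 in 60577 with Flt3 alone (3 as reported), and in HGS2, where it was 1, it was 2 with Cd4 alone and 0 with Flt3 alone, mature dendritic cell genes, macrophage genes or without Zbtb46 (added later).

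Leaving out 1 library gave 2 to 6 called members at TP1 in 60577, 7 to 8 at TP2, 5 to 6 at TP3, 0 to 5 from TP1 to TP2 treated (5 without TP1 treated replicate 2 and 3 without TP2 control replicate 2), 0 to 1 from TP2 to TP3 treated and 0 to 0 between controls. It gave 0 to 0 in the 6 HGS2 comparisons and in the TP1 difference between models, 0 to 1 in the TP2 difference (Ccr4, without HGS2 TP3 treated replicate 2 or 3), 0 to 1 between control tumors (Ccr8, without HGS2 TP2 control replicate 2, HGS2 TP3 treated replicate 3 or 60577 TP2 control replicate 1) and 0 to 1 in the lines. Relative to reference genes it gave 2 to 3 in 60577, where Foxp3 was lost except without TP1 control replicate 2, TP1 treated replicate 1 or TP2 control replicate 3, and 0 to 1 in HGS2, where Ccl22 was lost except without TP1 control replicate 1, TP1 treated replicate 3 or TP2 control replicate 1. The Ccr4 call from TP1 to TP2 treated was lost without TP1 control replicate 2 or 3, TP1 treated replicate 1 or 3, TP2 treated replicate 1, 3 or 4, or any TP3 tumor. The Ccr8 call from TP2 to TP3 treated was lost without TP1 control replicate 2 or 3, TP2 treated replicate 1, 3 or 4, or any TP3 tumor. Without 1 line library, the lone library of that line is assumed to vary like the other line.

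With the replicate block, the 60577 TP2 count was 7 (Ccl17 lost) and the TP3 count 6 (Ikzf2 gained), Ccr4 and Ccr8 lost their calls between treated groups, and no other call changed. At TP1 same-numbered tumors had r from -0.0516 to 0.131 in 60577 and from -0.279 to 0.0876 in HGS2. The lines had r of -0.153, and a crossed pairing, added after the data were seen, called 1 member as before. With all 34 tumors no HGS2 member was called. Ccr8 had 0 counts in 1 60577 TP2 control tumor and 1 HGS2 TP3 treated tumor, and it was below the floor in 1 HGS2 TP2 control tumor. Low counts therefore limit its values.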

Other observations

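The HGS2 TP3 treated tumor left out of the fits, replicate 1, had 8.31 CPM of Foxp3, 3.28 of Il2ra, 44.6 of Ikzf2 and 10.8 of Tnfrsf18. Its receptor levels were 2.94 CPM of Ccr4 and 1.19 CPM of Ccr8, and its ligand levels 1.36 CPM of Ccl17 and 17.3 CPM of Ccl22. Its Tnfrsf18, Ccr4, Ccr8, Foxp3 and Ccl17 levels lay above those of the other 3 HGS2 TP3 treated tumors. With it in the fit, the log2 difference from the TP2 controls went from -0.06 ± 0.64 to 0.88 ± 0.70 for Tnfrsf18, from 0.10 ± 0.74 to 0.63 ± 0.71 for Foxp3, from -0.33 ± 0.88 to 0.48 ± 0.87 for Ccr4 and from -0.02 ± 0.84 to 0.35 ± 0.78 for Ccl17, without a call. The median of the 8 members went from -0.00 to 0.41, and 7 of them in place of 4 stood above 0.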
